A study of Mus musculus with 25 samples.

Results

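Islets of small-litter pups were set against islets of control pups at weaning, postnatal day 21 (P21), across every autosomal interval of a methylation survey of the mouse pancreas. The comparison took 10 of the 25 libraries of the study, 5 small-litter and 5 control, assigned to their groups by the labels. It covered the 22300 intervals that lie on chromosomes 1 to 19, of which 22207 had enough counts to be tested and 93 did not. All mice were FVB. From P1 to P21 the control pups were reared 9 to a litter and the small-litter pups 4 to a litter, and the islets of each mouse were picked by hand in 3 rounds to keep them pure. The other libraries used here were P180 islets of control and of small-litter mice, 5 each, and the whole pancreas, nearly all of it exocrine, of 5 control pups at P21, which stood for exocrine tissue. The birth litters are not given in the labels, so some mice may be siblings, and p-values measure only the spread between these libraries.

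Islets of Langerhans hold the hormone-secreting cells of the pancreas, among them the beta cells that make insulin. Rearing rodents in small litters gives each pup more milk, and is a standard model of overnutrition during suckling, the period in which beta cells still divide and mature. DNA methylation, the addition of a methyl group to cytosine, mostly at CpG sites, is copied when cells divide and differs between cell types and with age. The survey used methylation-specific amplification with sequencing. The enzyme SmaI cuts CCCGGG sites that carry no methylation, XmaI then opens the methylated sites that are left, and adaptors ligated to those ends let the fragment between 2 methylated sites be amplified. A higher normalised read count therefore stands for more methylation at both ends of an interval, on a relative scale with no absolute level. Counts are given as CPM, read counts scaled to library size with factors from the trimmed mean of M-values.

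Total counts ran from 2912624 to 5583859 in the control libraries (median 4229604) and from 3140503 to 10591677 in the small-litter libraries (median 4102509). Some P21 libraries stood apart in the number of autosomal intervals without a count: small-litter replicate 1 with 424, control replicate 3 with 265 and control replicate 1 with 179, against 1 to 16 in the other 7. They also had the lowest total counts of the P21 libraries. With every P21 library thinned at random to 2912624 counts, they had 1.99%, 1.21% and 0.803% of intervals at 0. The other 7 then had 0.00448% to 0.148%. Counts of intervals called, at an unadjusted p under 0.05 or over 2-fold are given with and without these 3 libraries. So are the age and tissue scores, the mean distances and the mean of the rising age list. Counts without overlap, counts by confidence interval and the falling age list are given only with them. All 10 islet libraries lay clear of the exocrine tissue on a weighted mean of log2 CPM along the difference between the tissues, at -0.20 to 0.41 against 0.84 to 1.01.

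No interval passed the test for a difference between small-litter and control islets at P21. Of the 22207 autosomal intervals tested, 0 (0%) had an adjusted p under 0.05 (edgeR quasi-likelihood test, Benjamini-Hochberg adjusted over the whole table, n = 5 per group), and the lowest adjusted p was 1.00. At an unadjusted p under 0.05 there were 203 intervals, 0.914% of those tested, 131 with higher and 72 with lower counts in small litters. A uniform distribution of p-values gives 1110. DESeq2 called 0 intervals with 202 at an unadjusted p under 0.05, and limma voom called 0 with 668. The number at an unadjusted p under 0.05 lay between 119, without control replicate 1, and 392, without control replicate 5, when single libraries were left out. It also moved by over 1.5 times without control replicate 2 (308) or 4 (313) and without small-litter replicate 1 (310) or 5 (370), and every refit called 0. Without the 3 libraries with the most absent intervals it was 136.

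The estimates themselves lay close to 0. The median log2 fold change, small litter over control, was -0.002, and 78.0% of intervals lay within 0.25 of 0 in either direction. At 49.4% of the intervals the estimate was above 0. The scaling of the libraries centres the bulk of the estimates near 0, so these values cannot show whether most intervals shifted together. The precision sets what such a comparison can show. The median standard error was 0.26 on the log2 scale, and the 95% confidence interval lay inside a 2-fold difference in either direction at 17170 intervals (77.3%). It lay inside a 1.5-fold difference at 8815 (39.7%). At 332 intervals it reached beyond 4-fold, so that a difference of that size was not excluded there. Precision followed the level: in the lowest quintile by CPM 45.3% of the intervals had a confidence interval inside 2-fold, and in the highest quintile 95.6%.

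**Figure D1:**
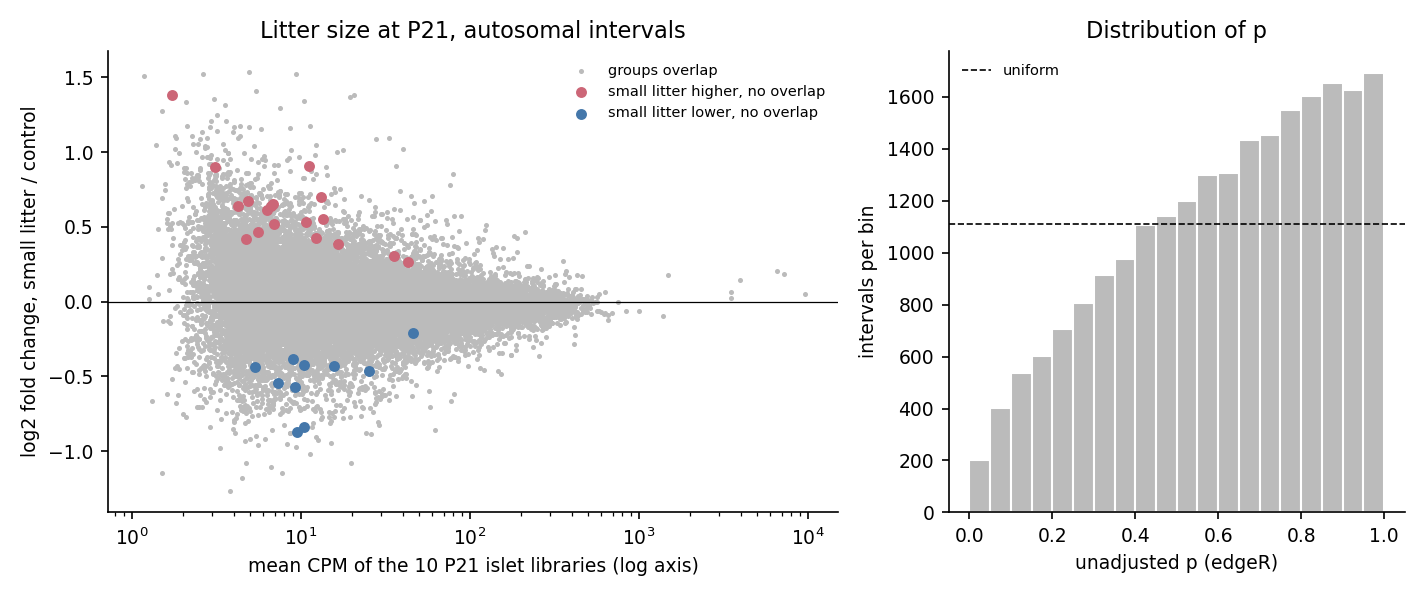
Left, log2 fold change of small-litter over control islets at P21 for each of the 22207 tested autosomal intervals against its mean CPM over the 10 libraries (log axis), with the 28 intervals whose groups do not overlap in colour. Right, the number of intervals by unadjusted edgeR p in bins of 0.05, with the uniform level as a dashed line; the lowest bin holds 203 intervals where a uniform distribution gives 1110.

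Estimates over 2-fold were few and mostly on the side of small litters. There were 61, of which 53 were higher and 8 lower in small litters, and many came with libraries in which the interval was all but absent. Of the 53, 30 had at most 2 counts in control replicate 1, 34 in control replicate 3, 16 in control replicate 4, 8 in control replicate 2, 4 in control replicate 5 and 25 in small-litter replicate 1, against 0 in each of the other 4 small-litter libraries. Over all tested intervals the share with so few counts was 1.66%, 2.11%, 0.162%, 0.252%, 0.27% and 4.28% in these 6 libraries, in the same order. The 53 were picked by estimates from these same counts, so more absences in controls than in small litters follow in part from the choice. The part of these absences in the fold changes was not tested. The highest estimate of all, 1.54 ± 1.01 (SE), belonged to chr1:50020694-50021169. Its CPM was 0, 6.22, 0, 0 and 6.64 in control replicates 1 to 5 and 0, 8.21, 8.25, 10.6 and 9.28 in small-litter replicates 1 to 5. The interval was thus absent from 3 control libraries and 1 small-litter library, among them all 3 with the most absent intervals, and present at a like level in the other 6. At the other end, chr8:72426194-72426527 had the CPM values 5.12, 8.85, 7.05, 4.76 and 1.02 in controls and 3.36, 2.00, 2.06, 3.16 and 0.949 in small litters, and control replicate 5 was nearly as low as the lowest small-litter library. The number of estimates over 2-fold ran from 45 without control replicate 1 to 241 without control replicate 2 and was 79, 68 of them higher, without the 3 libraries with the most absent intervals. Without small-litter replicate 2 the direction turned, with 34 of 133 higher in small litters. Leaving out control replicate 3, 4 or 5 or small-litter replicate 1 or 5 gave 93, 114, 153, 126 and 96.

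A second description asked at which intervals the 5 small-litter libraries and the 5 control libraries did not overlap at all. This held for 18 intervals with small litters higher (0.0811% of those tested) and 10 with small litters lower (0.045%), 28 in all (0.126%). In the islets at P180 it held for 72 (0.324%). If litter labels were assigned at random, over 252 assignments, a share of 0.00794 of intervals would be without overlap, more than at either age. With other scalings of the libraries the P21 number was 23 to 28. The 20 of these intervals described below are the 10 with the lowest p in each direction. None passed the adjusted threshold, 15 had an unadjusted p under 0.05, and their separation is how they were chosen. Positions are those of mouse build mm9 as the table gives them, and the intervals were not assigned to genes.

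Among the intervals with higher counts in small litters, chr13:46729851-46731325 (1474 bp) had the lowest p, 0.00280 unadjusted (edgeR). Its CPM was 0.682, 1.44, 0.613, 0.985 and 1.02 in control replicates 1 to 5 and 1.83, 2.22, 3.90, 2.87 and 1.69 in small-litter replicates 1 to 5. The means were 0.947 ± 0.326 and 2.50 ± 0.908 CPM (SD, n = 5), a log2 fold change of 1.38 ± 0.41 (SE). The level was low throughout, resting on 20 counts in all controls and 78 in all small-litter libraries, and exocrine tissue held 4.47 ± 1.63 CPM. The interval chr4:133420468-133421417 (949 bp) had 1.02, 1.91, 2.76, 2.46 and 2.55 CPM in controls and 4.89, 3.77, 4.45, 3.16 and 3.90 in small litters. Here the gap between the groups, from 2.76 to 3.16 CPM, was narrow beside the range within either. At chr3:146502206-146503072 (866 bp) controls had 4.09, 3.59, 3.37, 4.10 and 3.57 CPM and small litters 5.50, 5.33, 5.10, 8.33 and 5.59. Controls varied little there, and small-litter replicate 4 lay far above the other 4 of its group.

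The intervals chr7:53392058-53393180 and chr6:141149458-141150010 had more counts and smaller differences than those described above. This did not hold for every interval: chr7:49580112-49581230, with 159 counts in all controls and 440 in all small-litter libraries, had a log2 fold change of 0.91 ± 0.31. At chr7:53392058-53393180 (1122 bp) the CPM was 8.87, 13.4, 10.7, 9.52 and 13.3 in controls and 13.8, 17.5, 17.6, 16.4 and 15.1 in small litters, a log2 fold change of 0.55 ± 0.17. The highest control and the lowest small-litter library were nearly level. At P180 the order of the means was the other way, with 17.6 ± 1.92 CPM in controls and 14.6 ± 2.27 in small litters. The best-covered interval of this side was chr6:141149458-141150010 (552 bp), with 31.7, 32.8, 29.4, 32.8 and 33.9 CPM in controls and 41.9, 40.4, 38.0, 40.8 and 35.0 in small litters. Its groups were tight, and the log2 fold change was 0.30 ± 0.14. The other 5 on this side, at chr3:31107626-31108366, chr7:49580112-49581230, chr17:66729044-66731032, chr7:26470944-26472954 and chr8:108175819-108177514, had log2 fold changes from 0.52 to 0.91.

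On the lower side, chr2:115845505-115846922 (1417 bp) had the lowest p of all autosomal intervals, 0.000582 unadjusted (edgeR, adjusted p = 1.00). Its CPM was 11.3, 10.3, 20.9, 14.6 and 9.95 in control replicates 1 to 5 and 6.73, 5.99, 7.81, 8.62 and 7.70 in small-litter replicates 1 to 5. The means were 13.4 ± 4.56 and 7.37 ± 1.02 CPM, a log2 fold change of -0.84 ± 0.21. The controls were widely spread and the small litters were not, and at P180 both groups stood at the small-litter level, 8.50 ± 0.435 and 8.26 ± 1.05 CPM. At chr4:140203175-140203391 (216 bp) controls had 13.6, 13.2, 9.81, 11.0 and 14.8 CPM and small litters 2.45, 6.21, 5.75, 9.19 and 9.39, a log2 fold change of -0.87 ± 0.27. Small-litter replicate 1, the library with the most absent intervals, was the lowest there, and without it the log2 fold change was -0.68. At chr15:39561132-39562557 (1425 bp) the values were 33.8, 29.6, 29.4, 28.1 and 27.8 CPM in controls and 17.1, 26.2, 21.6, 20.4 and 20.5 in small litters, a log2 fold change of -0.46 ± 0.16. The other 7 on this side, at chr2:59192043-59193083, chr11:100759390-100761254, chr5:76314313-76315810, chr12:18904094-18906002, chr1:168932574-168933221, chr17:31675706-31677907 and chr5:75369870-75370965, had log2 fold changes from -0.57 to -0.21.

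**Figure D2:**
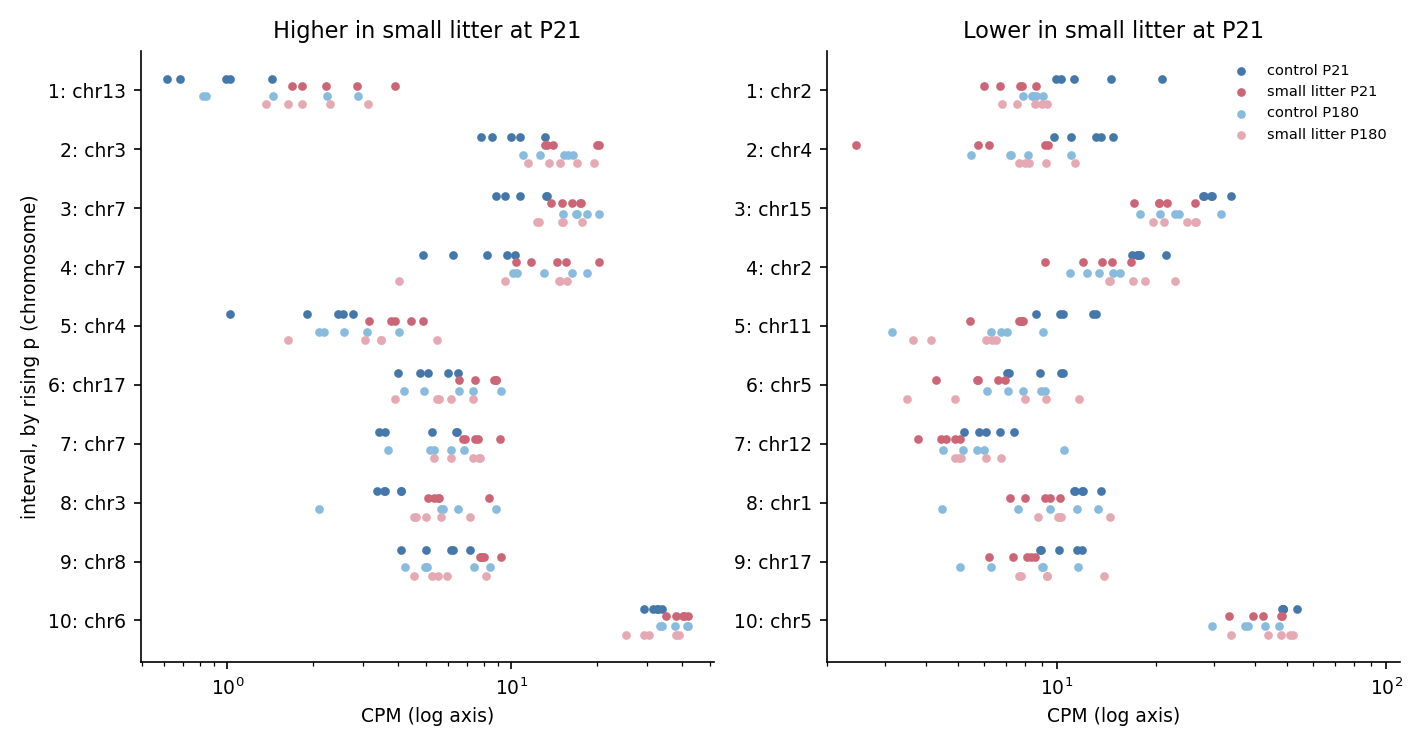
CPM (log axis) of the 10 intervals with small litters higher and the 10 with small litters lower that had the lowest p among those whose P21 groups do not overlap, 1 point per library, coloured by islet group, with the P180 libraries below those of P21. Each separation is how the interval was chosen; on the lower side the controls of the first interval, on chromosome 2, spread from 9.95 to 20.9 CPM.

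How far these separations rest on the scaling, and whether libraries of other mice showed them, was described next. Of the 20 intervals, 5 stayed without overlap under all 5 scalings: chr13:46729851-46731325, chr4:133420468-133421417, chr3:146502206-146503072, chr2:115845505-115846922 and chr4:140203175-140203391. The P180 libraries come from other mice, and their values were not among those compared for overlap. They did enter the scaling of the libraries and the fit whose p ranked the intervals. At P180, 9 of the 20 intervals had a litter difference of the same sign as at P21, 4 of the higher and 5 of the lower ones. None of the 20 had an unadjusted p under 0.05 there (edgeR, against 0.883% of all intervals), and 0 had groups without overlap. Over all 22207 intervals the log2 fold changes for litter size at P21 and at P180 had a Pearson r of -0.06 and a Spearman rho of -0.01, a correlation across intervals, which are not independent replicates and share the libraries of each age. A test of the difference between the litter effects at the 2 ages called 0 intervals, with 218 at an unadjusted p under 0.05 (0.982%, edgeR).

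Neighbouring intervals share the site between them, so a change in methylation at that site would touch both counts. Next to 8 of the 20 intervals lay 10 tested intervals, and 9 of these had a log2 fold change of the same sign, 0 with an unadjusted p under 0.05 (edgeR) and 0 without overlap. Among all 5879 adjoining pairs 57.8% had the same sign, and their log2 fold changes had a Pearson r of 0.21 across pairs, which overlap in members and share libraries. On chromosome 12 the interval chr12:18904094-18906002 went from 6.24 ± 0.841 CPM in controls to 4.55 ± 0.497 in small litters. Its neighbours chr12:18903925-18904094 and chr12:18906002-18906404 had log2 fold changes of -0.56 ± 0.28 and -0.30 ± 0.21 (SE). On chromosome 1 the interval chr1:168932574-168933221 had 12.0 ± 0.962 and 8.82 ± 1.21 CPM. Its neighbours chr1:168932344-168932574 and chr1:168933221-168933685 had log2 fold changes of -0.73 ± 0.56 and -0.34 ± 0.19. Some neighbours counted as of the same sign had estimates near 0. Beside chr7:53392058-53393180, chr7:53393180-53393789 had 22.1 ± 3.50 CPM in controls and 22.0 ± 6.32 in small litters (log2 fold change 0.001 ± 0.22). Beside chr4:140203175-140203391, chr4:140203391-140204515 had -0.02 ± 0.22. The neighbour of the opposite sign was chr5:75370965-75372793, with 0.12 ± 0.24 beside the lower interval chr5:75369870-75370965.

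Counts summed over wider regions gave the comparison more precision, and no window passed the test either. Of 2220 windows of 1 Mb, 0 (0%) had an adjusted p under 0.05 (edgeR), and 8 (0.36%) had an unadjusted p under 0.05 where a uniform distribution gives 111. The median standard error was 0.13 on the log2 scale, and 79.7% of the windows had a confidence interval inside 1.5-fold. Of 501 windows of 5 Mb, 0 were called and 0 had an unadjusted p under 0.05, and 98.2% had a confidence interval inside 1.5-fold. Among the 1 Mb windows with the lowest p, 10 intervals at 154 to 155 Mb of chromosome 3 together had 381, 395, 349, 369 and 406 CPM in controls and 412, 424, 422, 387 and 433 in small litters. The log2 fold change was 0.13 ± 0.06, and the groups overlapped. In the opposite direction, 9 intervals at 128 to 129 Mb of chromosome 5 had 440, 445, 410, 435 and 424 CPM in controls and 350, 424, 390, 372 and 414 in small litters, a log2 fold change of -0.14 ± 0.06, again with overlap. The other 4 windows chosen by rank held 1 or 2 intervals each. For none of the 19 chromosomes did the share of autosomal counts pass a test between the groups (two-sided exact permutation over 252 assignments, n = 5 per group, adjusted p = 0.944 for each).

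Small trends ran through the estimates with level and with length. The median log2 fold change was 0.08 in the lowest quintile of intervals by CPM and -0.02 in the highest. By length it went from -0.07 in the shortest decile (61 to 237 bp) to 0.12 in the longest (2512 to 3000 bp). Single libraries departed much further, from -0.59 in control replicate 5 to 0.90 in control replicate 2 for the median of the shortest decile. The slope of a library's log2 CPM on log10 length was 0.06 ± 0.29 in small litters and -0.06 ± 0.64 in controls (SD, n = 5), a difference within the spread of either group (exact permutation, two-sided, p = 0.738, adjusted p = 0.937 over 8 tests of 1 value per library). The smallest p this design allows is 0.00794. The part of length in single estimates was not tested.

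Over the whole profile, libraries of one litter size were on average slightly farther from each other than from those of the other. The mean Euclidean distance of log2 CPM was 123 between the groups and 129 within them, a difference of -6.50 (exact permutation, two-sided, n = 5 per group, p = 0.341, adjusted p = 0.937), and -5.53 without the 3 libraries with the most absent intervals (exact permutation, p = 0.543). Of the 45 pairs of libraries, 25 joined a small-litter to a control library, and so did 6 of the 10 closest. The closest were control replicate 5 and small-litter replicate 5, at 58.2, and control replicate 4 and small-litter replicate 3, at 62.5. The counts of the closest pair differed by more than counting error alone gives, with reads taken as independent (chi-square per degree of freedom 2.95, against 4.84 to 32.0 within small litters and 6.06 to 21.4 within controls). The mean distance among small-litter libraries was 133 and among controls 126, a difference of 6.84 (exact permutation, two-sided, n = 5 per group, p = 0.937). That difference turned to -37.8 without small-litter replicate 1 (exact permutation, p = 0.119) and to -26.1 without the 3 libraries with the most absent intervals (exact permutation, p = 0.200). Small-litter replicate 1 lay 199 from the rest of its group on average, while the other 4 lay at 110 to 127.

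**Figure D3:**
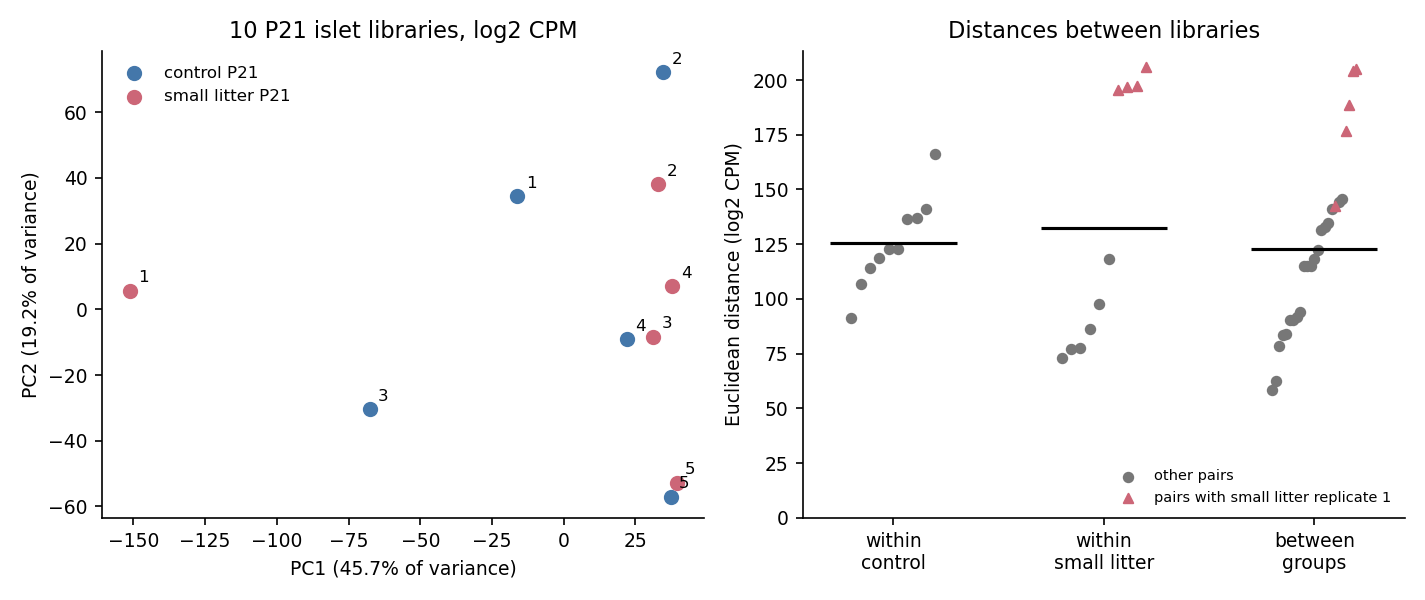
Left, the 10 P21 islet libraries on the first 2 principal components of log2 CPM, coloured by litter group. Right, Euclidean distances of the 45 pairs within controls, within small litters and between the groups; small-litter replicate 1 lies alone at the left end of the first component, and the closest pair, at 58.2, joins a control to a small-litter library.

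The next comparison asked whether small-litter islets at P21 lay along the direction from P21 to P180. Each library was scored by a weighted mean of its log2 CPM over all intervals, with weights equal to the P180 minus P21 difference of both litter groups without the library scored. The score was -0.11, 0.11, -0.34, 0.01 and 0.20 in control replicates 1 to 5 and -0.41, 0.00, 0.08, 0.07 and 0.24 in small-litter replicates 1 to 5. The groups overlapped over nearly their whole range, and the lowest library of each, small-litter replicate 1 and control replicate 3, was among those with the most absent intervals. The means were -0.01 ± 0.24 and -0.03 ± 0.21 (SD, n = 5 each). Their difference was 0.02 with a 95% interval from -0.32 to 0.35 (exact permutation, two-sided, p = 0.873, adjusted p = 0.937). The score separated the ages themselves poorly: P180 libraries averaged 0.09 ± 0.17 and P21 libraries -0.02 ± 0.21, and 9 of 10 P180 libraries lay below the highest P21 library. The interval of the litter difference thus holds the whole age difference of 0.11, in both directions. Without the 3 libraries with the most absent intervals the litter difference was -0.09 (exact permutation, p = 0.286).

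**Figure D4:**
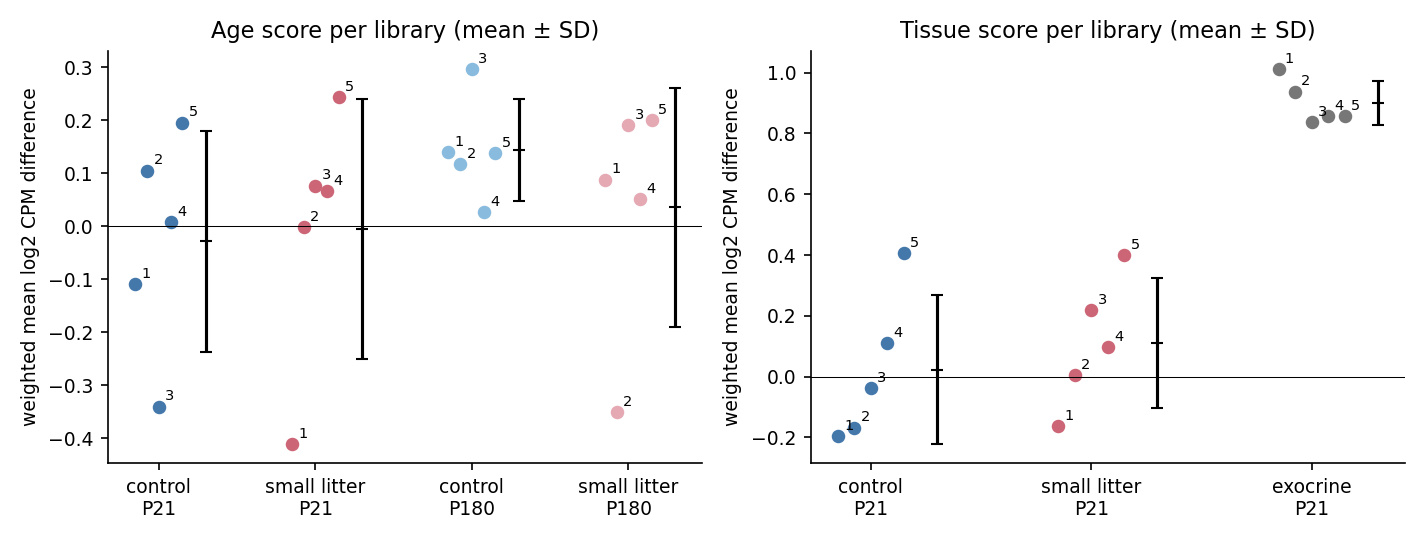
Score of each library along the P21 to P180 direction (4 islet groups) and along the islet to exocrine direction (P21 islets and exocrine tissue), as a weighted mean log2 CPM difference, with group means and SD. Small-litter and control P21 islets overlap in both; exocrine libraries, at 0.84 to 1.01, lie above all P21 islets in the second.

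The intervals called for age were then described on their own. Over both litter groups 48 autosomal intervals (0.216%) passed the adjusted threshold for age (edgeR), of which 44 (0.198%) rose and 4 fell from P21 to P180. That list was made with the P21 libraries of both litter groups in equal part and with the P180 libraries shown here, so its gap between the ages was fixed by the choice. At the 44 rising intervals the litter difference at P21 had a median log2 fold change of 0.09 and a range from -0.20 to 1.27, beside -0.002 over all intervals, and was above 0 at 33, where 49.4% of all intervals were. Of the 44, 2 had an unadjusted p under 0.05 (edgeR, against 0.914% of all intervals), 0 had groups without overlap (0.126% of all), and 39 had a confidence interval inside 2-fold (77.3% of all). Their median log2 fold change with age was 0.76. At the 4 falling intervals the litter difference had a median of -0.10 and a range from -0.26 to 0.23, with a median age change of -0.71.

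Averaged over the 44 rising intervals, log2 CPM was 4.63, 4.37, 4.33, 4.37 and 4.38 in control replicates 1 to 5 at P21 and 4.62, 4.42, 4.75, 4.52 and 4.45 in small-litter replicates 1 to 5. At P180 it ran from 5.04 to 5.82 in controls and from 5.14 to 5.46 in small litters. The P21 groups overlapped each other. The small-litter mean lay 0.14 above the control mean. It lay 0.16 above it when the 3 libraries with the most absent intervals were left out of the means. The same 44 intervals were used for both, called with those 3 libraries in the fit. The P180 mean lay 0.89 above the control P21 mean, a distance that choosing the list in these libraries enlarges and that is no measure for the litter difference. Over the 4 falling intervals the P21 means were 4.71 ± 0.24 in controls and 4.66 ± 0.21 in small litters (SD, n = 5 each), with 3.84 ± 0.33 and 4.00 ± 0.09 at P180. The size of the list, and with it these means, depended on the libraries: 9 intervals were called for age without the 3 libraries with the most absent intervals, 16 without small-litter P180 replicate 5 and 19 without control P21 replicate 3.

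**Figure D5:**
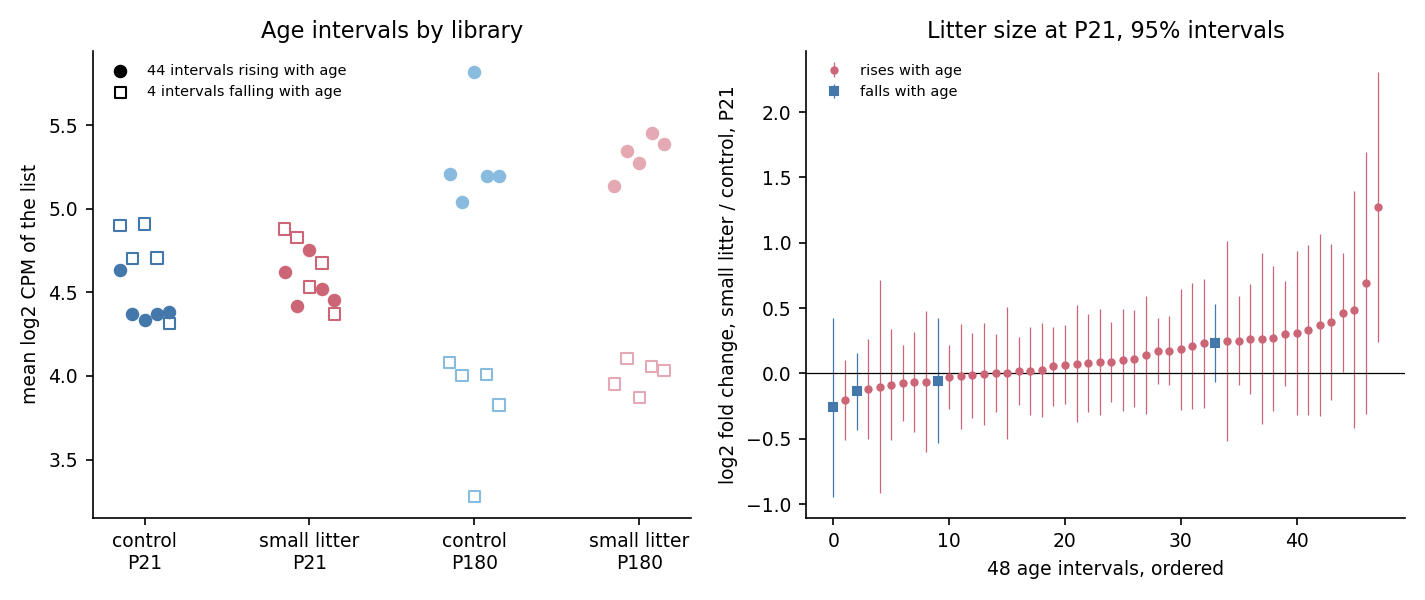
Left, mean log2 CPM per library over the 44 intervals that rose and the 4 that fell with age, in the 4 islet groups. Right, log2 fold change of small-litter over control islets at P21 with its 95% confidence interval for each of the 48 intervals; the rising list stands at 4.33 to 4.75 in all P21 libraries and at 5.04 to 5.82 at P180, a gap between the ages for which it was chosen.

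The age intervals with the highest litter difference at P21 were chosen for description by rank. At chr1:189431030-189431318 (288 bp) the CPM was 1.36, 1.20, 0.613, 0.492 and 0.766 in controls and 2.75, 0.888, 2.93, 3.45 and 0.738 in small litters, a log2 fold change of 1.27 ± 0.50 (SE). Small-litter replicates 1, 3 and 4 lay above all controls and replicates 2 and 5 among them. The means at P180 were 3.80 ± 1.45 CPM in controls and 4.60 ± 1.65 in small litters (SD, n = 5 each), and exocrine tissue had 6.63 ± 2.17. The adjoining chr1:189430670-189431030 had the same replicates as the highest of the small litters, with 7.04, 1.55, 4.77, 6.61 and 2.00 CPM in replicates 1 to 5 against 3.75, 5.02, 2.45, 2.30 and 1.79 in controls, but controls and small litters overlapped further (log2 fold change 0.49 ± 0.44). At chr10:42892495-42893177 the means were 1.16 ± 0.550 and 1.87 ± 0.876 CPM. The lowest of the list were chr4:22630628-22630796, which fell with age and had 17.4 ± 6.80 CPM in controls and 14.5 ± 6.59 in small litters, chr11:117177768-117178721, which rose with age and had 113 ± 22.8 and 97.0 ± 19.7, and chr6:124665810-124667411, which fell with age and had 28.0 ± 1.48 and 25.2 ± 3.17. None of the 6 differed by litter size beyond the adjusted threshold (edgeR, adjusted p = 1.00 for each).

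Along the direction from islet to exocrine tissue, made the same way, the score was -0.20, -0.17, -0.04, 0.11 and 0.41 in control replicates 1 to 5 and -0.16, 0.00, 0.22, 0.10 and 0.40 in small-litter replicates 1 to 5. The means were 0.02 ± 0.25 and 0.11 ± 0.21 (SD, n = 5 each), a difference of 0.09 with a 95% interval from -0.27 to 0.42 (exact permutation, two-sided, p = 0.540, adjusted p = 0.937). Without the 3 libraries with the most absent intervals it was 0.04 (exact permutation, p = 0.857). The upper end of the 95% interval is below the difference between exocrine tissue and P21 islets, 0.83. The groups overlapped, and replicates numbered 5 were the highest in both. Those are also the closest pair of libraries and the ones with the largest share of counts in their top 100 intervals, 10.3% and 10.4%.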

How the data were processed

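Per the labels' protocols, islet DNA of each mouse was cut with SmaI and then XmaI, joined to adaptors, amplified and sequenced after shearing. Bowtie 0.12.9, cutadapt, FastQC 0.10.1 and mouse build mm9 are named in the submitters' processing notes, and how reads were counted is not given in the sources used here. For all 25 libraries the authors deposited raw counts per interval, not normalized. PCR reads are not independent molecules.

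Analysis used R 4.3.3. All 20 islet libraries were fitted together (edgeR 4.0.16, filterByExpr, TMM, robust quasi-likelihood, 22654 intervals tested, adjusted p threshold 0.05, biological coefficient of variation 30.6%) and litter size at P21 was a contrast of group means. Log2 CPM used a prior count of 2. Single values per library were compared by two-sided exact permutation over 252 assignments, and 95% intervals of score differences came from inverting that test. Tests with libraries left out had fewer assignments. Their smallest possible p was therefore above 0.00794, and they could show less. The scripts were tested on simulated data. Named intervals were up to 10 per direction with the lowest p among those whose P21 groups did not overlap, the 3 highest and 3 lowest litter differences among age intervals, and the 3 windows with the lowest p per direction. The question, members and lists were chosen with earlier results of these data known. Alternatives were other scalings, filters (none, or a mean of at least 50 counts), prior counts, DESeq2 1.42.0, limma 3.58.1 voom, other sets of libraries, a replicate block, a length trend removed (lowess, span 0.3) and each library left out; leaving out 3 P21 libraries rich in intervals at 0, and non-overlap under other scalings, were added after seeing the data. No annotation or sequence of mm9 was used here, so intervals carry no gene names and the gene lists planned for them were not examined. Plots were made in Python 3.11.15 (matplotlib 3.10.9).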

Additional observations from a re-analysis of the deposited data

Results flagged for a closer look

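In 66 groups of 5 values examined, 8 had a highest or lowest library far from the other 4. Independent normal values that were not selected do this in about 1 in 20 groups. The groups here share libraries, and some are of intervals chosen for separation, so the number flagged cannot be judged against that rate. Small-litter replicate 1 had 1.90% of autosomal intervals at 0 counts, with 0.00448% to 0.0583% in the other small-litter libraries, and its mean distance to its own group was 198.8 against 109.6 to 127.1. Control replicate 5 had 10.3% of its counts in its top 100 intervals, with 7.78% to 8.02% in the other controls. Some of the intervals chosen for groups without overlap also had such a library. Small-litter replicate 4 had 8.33 CPM at chr3:146502206-146503072 (the others 5.10 to 5.59) and 5.46 CPM at chr11:100759390-100761254 (the others 7.65 to 7.91). Small-litter replicate 1 had 9.18 CPM at chr8:108175819-108177514 (the others 7.77 to 8.04). Control replicate 1 had 21.5 CPM at chr2:59192043-59193083 (the others 16.9 to 17.9), and control replicate 4 had 53.7 CPM at chr5:75369870-75370965 (the others 48.3 to 48.7).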

How the results depend on the processing

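No alternative tried called an interval or a 1 Mb window for litter size at P21. The 32 named intervals and windows kept their direction in all 978 pairs of a named result and an alternative setting, with a lowest adjusted p of 0.812 (edgeR, DESeq2 or limma). The 978 are not separate fits, and some of the settings left out only a P180 library. They were chosen by separation or by rank in these same libraries, so the kept direction follows largely from the choice and is no separate support. Intervals at an unadjusted p under 0.05, 203 as reported, numbered 92 with a mean of at least 50 counts, 668 with limma voom, 93 in a fit of the 10 P21 libraries alone and 119 to 392 with each library left out. Estimates over 2-fold numbered 12 with a mean of at least 50 counts and 529 with voom. Intervals called for age, 48 as reported, numbered 144 with DESeq2, 81 with voom, 96 with a length trend removed, 9 without the 3 libraries with most intervals at 0 and 16 to 50 with each library left out. The difference in age score at P21, 0.02 as reported, turned to -0.0104 with weights from all libraries and -0.0939 without those 3. It ran from -0.0598 to 0.105 with each library left out. A plain mean of the called rising minus the called falling age intervals, at equal weights, differed by 0.185 between the P21 groups. That value is on another scale and cannot be set beside the score or its age difference. Its list was also called with these same P21 libraries. The difference in spread turned to -26.1 without the 3 libraries with most intervals at 0 and ran from -37.8 to 22.1. With each library left out, the length slope difference ran from -0.12 to 0.24 and the difference in the percent of intervals at 0 from -0.412 to 0.151. The causes were not tested. Replicate numbers were not shown to pair the libraries: deviations of same-numbered libraries correlated at 0.20, 0.51, -0.19, 0.08 and 0.65, and not every library matched its own number best. With the replicate number as a block, 0 intervals were called for litter size at P21, 199 had an unadjusted p under 0.05, and 45 were called for age. The median SE (log2) was 0.38 in the lowest quintile of intervals by CPM and 0.40 in the shortest decile by length.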

Other observations

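A set of short intervals was present or all but absent library by library. These 139 autosomal intervals (0.623%) were picked after their values were seen, as having at most 2 counts in at least 3 of the 10 P21 islet libraries and over 5 CPM in at least 3 others. They had a median length of 257 bp, beside 1170 bp over all autosomal intervals. Of the 139, 134 were at or below 2 counts in all of control replicate 1, control replicate 3 and small-litter replicate 1, and 24 of those also in control replicate 4. The choice largely fixed which libraries these were. Over all tested intervals those 3 had so few counts at 369, 468 and 950, against 0 to 60 in the other P21 libraries. Libraries that the choice did not use were looked at over the same set. Small-litter replicate 2 at P180 had at most 2 counts at 130 of the 139 and small-litter replicate 4 at P180 at 22, while the other 8 P180 islet libraries had so few at 0 to 4 and the 5 exocrine libraries at 0 to 4. Small-litter replicate 2 at P180 was also rich in absences over the whole table. It had 196 autosomal intervals (0.879%) at 0 counts, against 2 to 53 in the other P180 islet libraries. The part of such general absence in this set was not tested. Libraries of both litter sizes and both ages were thus among those in which the set was nearly missing. Of the 53 intervals with an estimate over 2-fold higher in small litters at P21, 19 belonged to this set. The chr9:121637245-121637647 interval had 0 counts in control replicates 1, 3 and 4 and 2 in small-litter replicate 1, and 9.19 to 24.4 CPM in the other 6 P21 libraries.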
